A study of Mus musculus with 8 samples.

Results

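The genes described here encode the constitutive proteasome, its activators and its assembly factors. They were taken by name: every gene of the array with 1 annotated symbol that starts with Psma, Psmb, Psmc, Psmd, Psme, Psmf or Psmg, except the immunoproteasome subunits Psmb8, Psmb9 and Psmb10. This gave 47 genes of the 19933 measured. They comprised 16 genes of the 20S core, 17 of the 19S regulatory particle, 2 interferon-induced activators (Psme1 and Psme2), 3 other activators or inhibitors (Psme3, Psme4 and Psmf1) and 7 assembly chaperones (Psmg1 to Psmg4, Psmd5, Psmd9 and Psmd10). The other 2, Psmc3ip and Psme3ip1, match the name and are not subunits. The rule itself uses gene names and no measured value, although earlier results of these data were known when it was chosen.

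Left ventricular RNA of 8 C57/Bl6 mice was hybridised to Affymetrix Mouse Gene 1.0 ST arrays, 1 array per heart. All mice were 11 weeks old. The 2 PlGF mice carried the driver αMHC-tTA, which acts in cardiomyocytes, and a TRE-PlGF responder, so that placental growth factor was made in the heart for 6 weeks after doxycycline was withdrawn. The 3 arrays labelled PlGF/RGS4 came from mice in which the same driver was crossed to a responder for PlGF and RGS4, a regulator that shortens G protein signalling. The 3 control arrays came from matching controls, which the study describes as littermates with a single transgene. All 3 groups shared strain, age and the doxycycline diet up to induction. The comparisons ask which transcripts differ when PlGF is expressed, alone or together with RGS4. The labels give no sex, and values are on bulk tissue, in which fewer cells of a type and less RNA per cell cannot be told apart.

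The 26S proteasome degrades proteins that carry ubiquitin chains. Its 20S core is a barrel of α and β rings with the catalytic sites inside, and the 19S particle binds, unfolds and feeds the substrate. Under interferon the catalytic subunits Psmb5, Psmb6 and Psmb7 are replaced by Psmb8, Psmb9 and Psmb10, and Psme1 and Psme2 together form the PA28αβ cap. In the heart, where proteins must be renewed in cells that seldom divide, the proteasome is the main route for breakdown of sarcomeric and signalling proteins, RGS4 among them.

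Values are intensities, scaled by the authors to a common level per array, and were compared as log2 of the intensity plus 1. The test was limma over all 19933 genes with Benjamini-Hochberg adjustment, and a gene was called at an adjusted p below 0.05. The array medians lay between 111.1 and 115.15. Array PlGF 1 stood apart, with a mean correlation of 0.974 to the arrays of the other groups, against 0.991 to 0.993 for each other array. Pgf itself read 4136 and 917 with PlGF, 211 to 387 in control hearts, and all 3 arrays labelled PlGF/RGS4 lay below the middle control at 349, so this gene goes against their label. Rgs4 was not raised there either, at 187 to 234 against 209.5 to 281.5 in control hearts. Xist was low in control 2, PlGF 1 and PlGF/RGS4 2, at 26.9 to 50.8, and read 2581 to 2958.5 in the other 5 hearts. The 12 cardiomyocyte markers were among the bright genes of every array, between 3573 and 18910 units, as the labelled tissue requires.

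Promoter sequences of RefSeq (GRCm38.p6, 250 bases before to 50 after each start site) were found for 39 of the 47 genes, as 43 promoters. The short motifs, each searched on both strands, were counted in them: GAAANNGAA, the core that interferon regulatory factors bind, in 7 of 43 promoters (16.3%) against 8.56% of all 32851 promoters; TTCNNNGAA, the STAT type, in 2 (4.65%) against 8.3%; TGACNNNGC, the antioxidant response type, in 6 (14%) against 12.4%; and CCAAT in 15 (34.9%) against 37.4%. Matches of different motifs overlapped in 0 cases. The 7 genes with GAAANNGAA were Psmb3, Psmb4, Psmc2, Psmd4, Psmd9, Psme1 and Psmg4, and those with TGACNNNGC were Psmb5, Psmb6, Psmc6, Psmd9, Psmd12 and Psme4. The promoters listed for Psme2 held neither GAAANNGAA nor TTCNNNGAA. Of the 3 immunoproteasome promoters, outside the 47 genes, 0 held GAAANNGAA and 1 held TTCNNNGAA. A link between these motifs and the array values was not tested. The windows below are shown for some of the members described in the results that held a match, with the match in capitals, 5′ to 3′ on the strand of the gene. They are chr14:55578496-55578520 (plus strand, bases 11 to 19 after the start of Psme1), chr13:34162971-34162995 (plus, bases 16 to 24 after the start of Psmg4), chr11:97703264-97703288 (plus, −162 to −154 of Psmb3) and chr11:30771760-30771784 (plus, −7 to 2 of Psme4). In Psme1, Psmb3 and Psme4 the motif reads on the other strand.
Psme1: gctgtgctTTCGCTTTCccttcccg
Psmg4: gcgcatctGAAAGTGAAagagcgtt
Psmb3: agtgacttTTCACTTTCcgctttcc
Psme4: ctgcggctGCAGCGTCAccagaaga

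In PlGF hearts 2 of the 47 genes were called against control, Psme2 and Psmd10, both higher, and 0 were called lower. Over all genes 505 of 19933 (2.53%) were called. At an unadjusted p below 0.05 stood 9 of the 47 (19.1%), 6 higher and 3 lower, against 22.6% of all genes. The arrays of both groups did not overlap for 15 of the 47 (31.9%), 7 above and 8 below control, against 33.9% of all genes. The plot of every gene by heart shows how narrow the spread was for most members and which few left it.

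**Figure D1:**
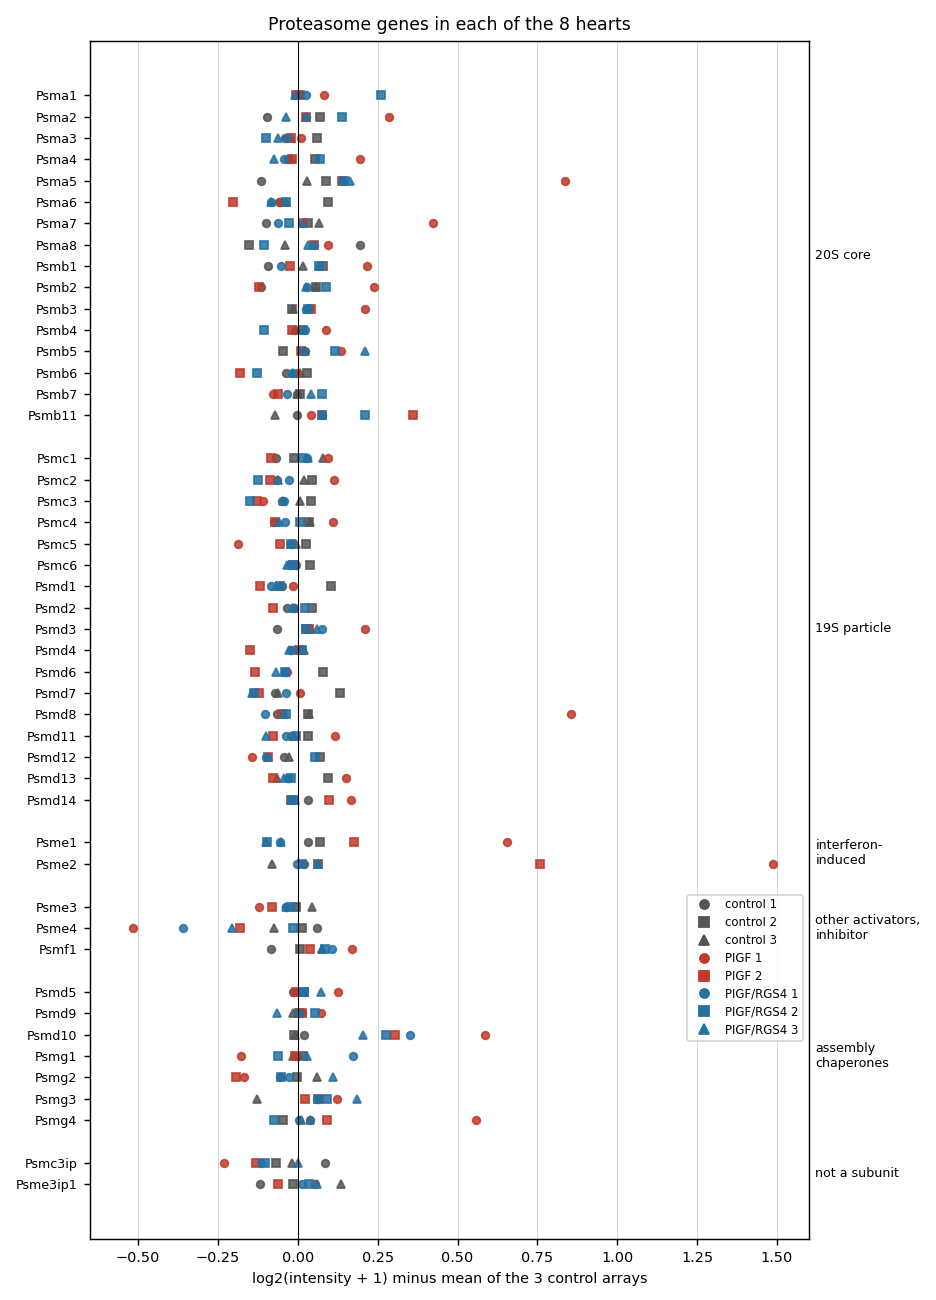
Each row is a proteasome gene and each point 1 heart, as log2(intensity + 1) minus the mean of the 3 control arrays (grey, control; red, PlGF; blue, arrays labelled PlGF/RGS4; the marker shape gives the replicate). Psme2 reads 1.49 and 0.76 with PlGF, Psma5 and Psmd8 stand out in PlGF 1 only, at 0.84 and 0.86, and Psme4 reads −0.51 there.

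Among the 47 genes the difference between PlGF and control was furthest from 0 for Psme2, an interferon-induced activator, and Psme1, its partner, differed by less. Psme2, the PA28β subunit of the cap that opens the core gate, read 1257, 1296 and 1174 units in control hearts, 3481 and 2099 with PlGF, and 1239, 1254 and 1296 in arrays labelled PlGF/RGS4. Both PlGF hearts lay above all 6 others, and the other groups overlapped. The difference PlGF minus control was 1.12 ± 0.18 on the log2 scale (SE, n = 2 and 3), or 2.18-fold, with a limma adjusted p of 0.0322. Against the arrays labelled PlGF/RGS4 Psme2 was higher by 1.10 ± 0.18 (limma adjusted p = 0.0447). Without PlGF 1 the difference from control was 0.76, and without PlGF 2 it was 1.49, with limma adjusted p of 0.0061 and 8.48e-05. Each of these fits has a single PlGF heart, which is assumed to vary like the control and PlGF/RGS4 arrays that supply the spread, so their p-values do not bear on the variation between PlGF hearts. The call was lost when any one of the control or PlGF/RGS4 arrays was left out (limma adjusted p from 0.0739 to 0.128) and when only the control and PlGF arrays were fitted (limma adjusted p = 0.215), while the difference stayed between 1.08 and 1.15. A separate probe set listed for both Psme2 and its close copy Psme2b was in no fit. It read 546, 524 and 499 in control hearts, 1432.5 and 892 with PlGF and 503, 534 and 510.1 in arrays labelled PlGF/RGS4. Signal from Psme2b cannot be told apart there, and the PlGF hearts again lay above all others, by 1.11 on the log2 scale (two-sided exact permutation p = 0.1, the smallest that 2 against 3 arrays allow).

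Psme1, the PA28α partner of Psme2, read 1443, 1480 and 1318 in control hearts, 2225 and 1593 with PlGF, and 1358, 1320.2 and 1359.9 in arrays labelled PlGF/RGS4. Its PlGF hearts also lay above all others, PlGF 2 by little. The difference from control was 0.42 ± 0.13 (limma adjusted p = 0.123) and did not pass. Against the arrays labelled PlGF/RGS4 it was 0.48 ± 0.13 (limma adjusted p = 0.131). The difference was 0.66 with PlGF 1 alone and 0.17 with PlGF 2 alone. Both genes code for subunits of 1 ring, yet their differences were unequal: log2 Psme2 minus log2 Psme1 was −0.20, −0.19 and −0.17 in control hearts, 0.65 and 0.40 with PlGF and −0.13, −0.07 and −0.07 in arrays labelled PlGF/RGS4. The 3 groups did not overlap in this ratio. The group differences were 0.71 for PlGF and 0.09 for PlGF/RGS4 against control (two-sided exact permutation p = 0.1 each, the smallest possible).

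Psmd10 was the only other gene called. It encodes gankyrin, an ankyrin repeat chaperone that helps to assemble the base of the 19S particle. Psmd10 read 414, 405 and 406 in control hearts, 613 and 504 with PlGF, and 520.1, 494 and 470.0 in arrays labelled PlGF/RGS4. Both PlGF hearts and all 3 arrays labelled PlGF/RGS4 lay above all 3 controls, and the PlGF and PlGF/RGS4 groups overlapped. PlGF minus control was 0.44 ± 0.09, or 1.36-fold (limma adjusted p = 0.0473). PlGF/RGS4 minus control was 0.28 ± 0.08, at an unadjusted limma p of 0.00833 and an adjusted p of 0.858. PlGF minus PlGF/RGS4 was 0.17 ± 0.09 (limma adjusted p = 0.321). The PlGF call sat close to the threshold: without PlGF 1, which leaves 1 PlGF heart, the difference was 0.30 (limma adjusted p = 0.104), and the call was also lost without any single control or PlGF/RGS4 array (limma adjusted p up to 0.152) and with only control and PlGF fitted (limma adjusted p = 0.230). The plot of intensities for 6 genes sets Psmd10 beside the activators.

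**Figure D2:**
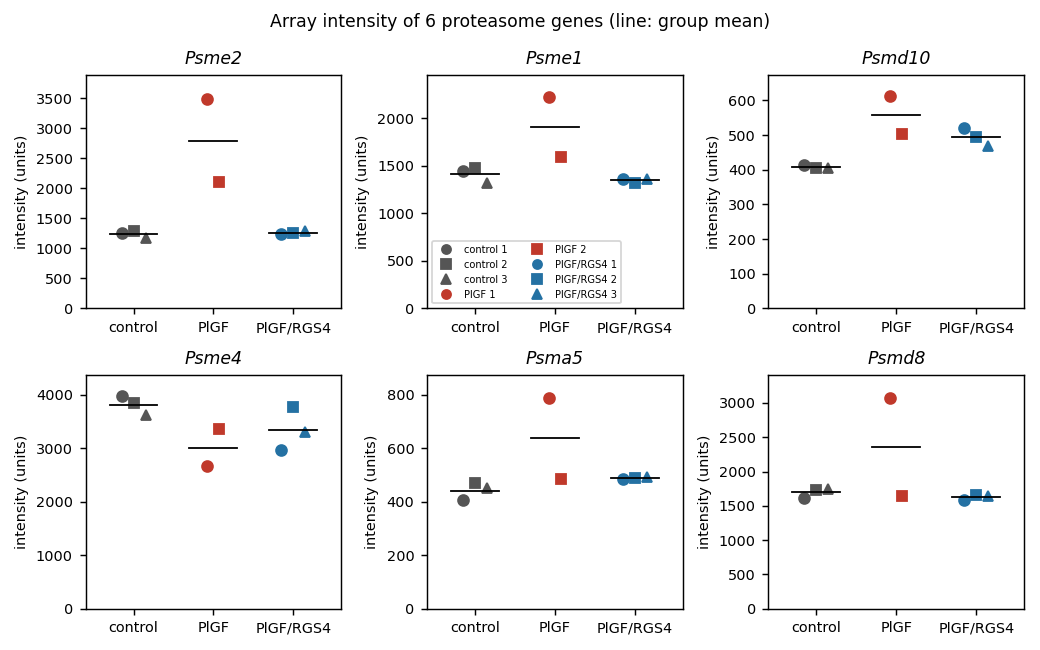
Array intensity (linear units, axes from 0) of 6 proteasome genes in each heart, by group, with a line at the group mean. Psme2 and Psme1 are above control in both PlGF hearts. Psmd10 is above control in both PlGF hearts and in all 3 arrays labelled PlGF/RGS4. Psma5 and Psmd8 are far from the rest in PlGF 1 only, at 787 and 3073.

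Of the other 6 assembly chaperones 0 were called in PlGF, 1 at an unadjusted p below 0.05 was higher and 1 lower. With Psmd10 this made 3 of 7 (42.9%) at that level, against 22.6% of all genes. Psmg4, which pairs with Psmg3 to place the α ring subunits, read 195, 183 and 191 in control hearts, 279 and 202 with PlGF and 190.0, 180.1 and 195 in arrays labelled PlGF/RGS4. The higher PlGF mean, by 0.32 ± 0.12 (limma adjusted p = 0.179), came mostly from PlGF 1, and without it the difference was 0.09. Psmg2, of the chaperone pair that starts the α ring, read 533, 554 and 578 in control hearts, 494 and 485 with PlGF and 544, 535 and 599 in arrays labelled PlGF/RGS4. Both PlGF hearts lay below the other 6 by a small margin, a difference of −0.18 ± 0.07 (limma adjusted p = 0.165). Its partner Psmg1 read 321 and 361 in PlGF against 359.5 to 367.5 in control (−0.09 ± 0.08, limma adjusted p = 0.521). Psmd5 and Psmd9, chaperones of the 19S base, differed from control by 0.06 and 0.04, and Psmg3 by 0.07. The median over the 7 chaperones was 0.06 in PlGF and 0.04 in arrays labelled PlGF/RGS4, against −0.03 and 0.00 over all genes.

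Of the 33 subunits of the core and the 19S particle 0 were called against control in PlGF or in arrays labelled PlGF/RGS4. In PlGF 2 of the 33 (6.06%) had an unadjusted p below 0.05, Psma5 and Psmd14, both higher, against the 22.6% of all genes given above. The median of the 33 differences was 0.02 and the median size, with the sign dropped, was 0.07, against 0.10 over all genes and 0.14 over genes above the median level. The 95% interval of the difference lay within 1.5-fold on both sides for 31 of 33 (93.9%), against 83.8% of all genes and 77.8% of the brighter ones. The exceptions were Psma5 and Psmd8. Each interval uses 1 spread per gene, shared by the 3 groups and drawn mostly from the control and PlGF/RGS4 arrays. For genes that vary more between PlGF hearts than between the other arrays, the PlGF interval is too narrow. Psmb2, at 3714 and 2892 in the PlGF hearts, had an interval from −0.19 to 0.31. In the arrays labelled PlGF/RGS4 the interval lay within 1.5-fold for all 33, against 94.2% of all genes, and the median size was 0.05, as it was over all genes. The plot of intervals shows these bounds gene by gene.

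**Figure D3:**
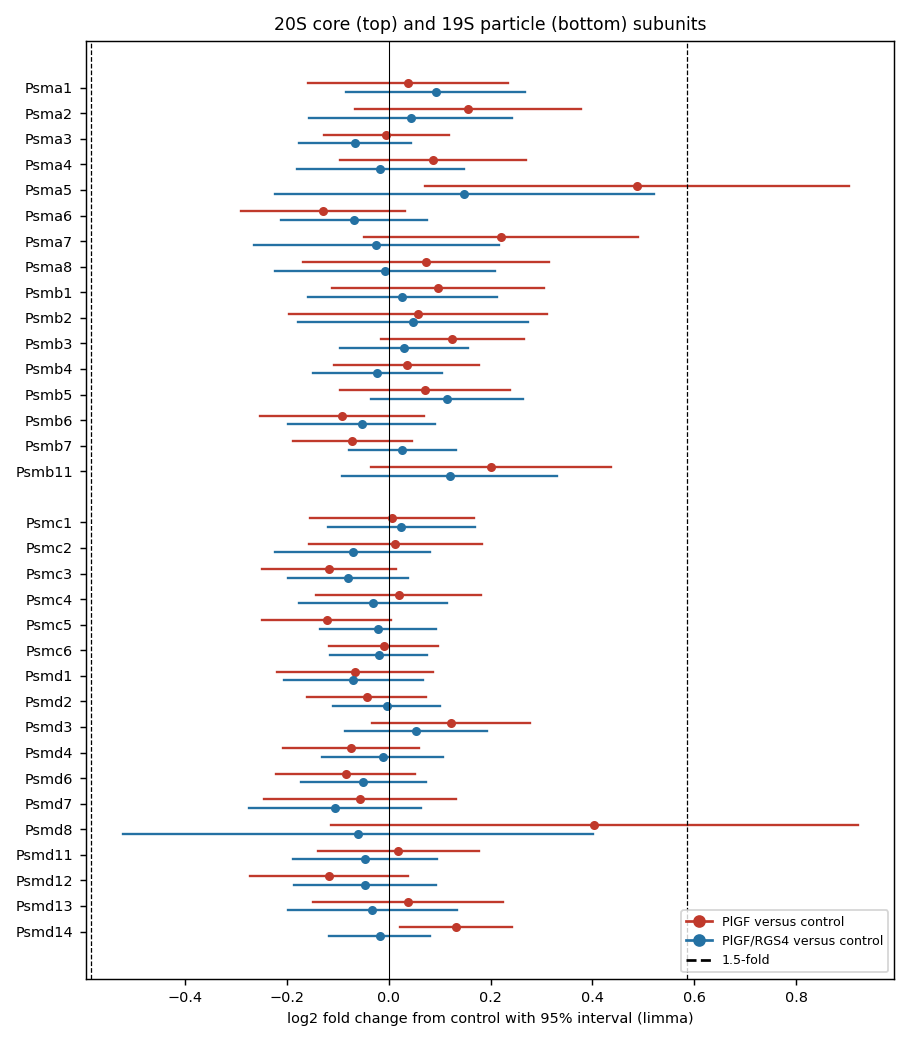
Log2 difference from control with its 95% interval (limma) for the 16 genes of the core and the 17 of the 19S particle, in PlGF (red) and in arrays labelled PlGF/RGS4 (blue). Dashed lines mark 1.5-fold, which only the PlGF intervals of Psma5 and Psmd8 cross, with upper ends at 0.90 and 0.92. The spread behind each interval is shared by the 3 groups.

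Over the 16 core genes the median difference was 0.07 in PlGF, with a range from −0.13 (Psma6) to 0.49 (Psma5), and 0.03 in arrays labelled PlGF/RGS4. The sign in PlGF depended on PlGF 1: the median was 0.12 in that heart and −0.011 in PlGF 2, and it was 0.020 over both with arrays centred on their medians. Psma5, a subunit of the α ring, read 407, 468 and 449 in control hearts, 787 and 485 with PlGF and 485, 487 and 494 in arrays labelled PlGF/RGS4. PlGF 1 was far above every other array, while PlGF 2 read the same as PlGF/RGS4 1. The difference was 0.49 ± 0.18 (limma adjusted p = 0.165), and without PlGF 1 it was 0.14. The other probe set of Psma5 read 816 in PlGF 1 and 443 in PlGF 2, where the controls held 414 to 472.5, so that on it the groups overlapped. Psma7, also of the α ring, read 434, 476 and 487 in control hearts and 625 and 470.4 with PlGF, again with PlGF 1 alone above the rest (0.22 ± 0.12, limma adjusted p = 0.297).

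The 3 catalytic subunits of the core, which the immunosubunits can replace, lay near the control level. Psmb5, the chymotrypsin-like subunit, read 4989, 4763 and 4993 in control hearts, 5393 and 4946 with PlGF and 4974, 5321.5 and 5685 in arrays labelled PlGF/RGS4, with all groups overlapping (0.07 ± 0.07 in PlGF, 95% interval −0.10 to 0.24). Psmb6, the caspase-like subunit, read 1652, 1729.5 and 1702 in control hearts and 1691 and 1495 with PlGF (−0.09, 95% interval −0.25 to 0.07). Psmb7, the trypsin-like subunit, read 1819, 1832 and 1819 in control hearts and 1726 and 1745 with PlGF, just below them (−0.07, 95% interval −0.19 to 0.05). Their inducible counterparts Psmb8, Psmb9 and Psmb10 were called higher in PlGF by 2.36, 2.11 and 1.98 (limma adjusted p from 0.0247 to 0.0299). Psmb3, a β ring subunit without a catalytic site, read 5410, 5216 and 5226 in control hearts and 6110.3 and 5434 with PlGF, a narrow separation (0.13 ± 0.06, limma adjusted p = 0.264). Psmb11, the thymus form of the catalytic β5 subunit, was dim, at 37.5 to 41.6 in control and 40.6 and 51.0 in PlGF. Psma8, the testis form of an α ring subunit, was dimmer still, at 28.7 to 36.8 over the 8 hearts.

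Over the 17 genes of the 19S particle the median difference was −0.01 in PlGF, with a range from −0.12 (Psmc5) to 0.40 (Psmd8). In arrays labelled PlGF/RGS4 it was −0.03, and 15 of 17 were below the control mean without passing, against 9640 of 19933 over all genes. By heart the median was −0.029, −0.014 and −0.045 in those arrays and −0.042, 0.038 and −0.010 in the controls, so control 1 lay as low. Psmd14, the lid protease that removes ubiquitin chains from the substrate, read 1612, 1552 and 1566 in control hearts, 1768 and 1689 with PlGF and 1554, 1564 and 1553 in arrays labelled PlGF/RGS4. Both PlGF hearts lay above all other arrays, by 0.13 ± 0.05 against control (limma adjusted p = 0.159). Over the 17 genes the PlGF and control arrays did not overlap for 4 (23.5%), 1 above and 3 below control, against 33.9% of all genes. The 3 below were Psmc5 and Psmc3, both ATPases of the base, and Psmd12. Psmd12 read 1301 and 1347 with PlGF against 1395.5 to 1506.7 in control hearts (−0.12 ± 0.07, limma adjusted p = 0.329). Psmc5 read 576, 595 and 582 in control hearts and 513 and 562 with PlGF (−0.12 ± 0.05, limma adjusted p = 0.236), and it was listed at exactly 575.6 in control 1 and in all 3 arrays labelled PlGF/RGS4. Psmc3 read 769, 819 and 799 against 737.5 and 728 (−0.12 ± 0.06, limma adjusted p = 0.262). In arrays labelled PlGF/RGS4 Psmc3 read 772, 716 and 771, so that PlGF/RGS4 2 lay below both PlGF hearts. Psmd3, a scaffold subunit of the lid, read 780.5, 832 and 840.4 against 945 and 837 (0.12 ± 0.07, limma adjusted p = 0.314), so that its groups overlapped. Psmd8, a lid subunit named here after its values were seen, read 1621, 1734.5 and 1739 in control hearts, 3073 and 1641 with PlGF and 1581, 1654 and 1649 in arrays labelled PlGF/RGS4. Only PlGF 1 lay far above the rest, and the group difference was 0.40 ± 0.22 (limma adjusted p = 0.317).

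The 2 PlGF hearts differed from each other. Deviations of the 33 genes from the control mean had an SD of 0.23 in PlGF 1, 0.10 in PlGF 2 and 0.05 to 0.10 in arrays labelled PlGF/RGS4, and over all genes the SD was larger in each, at 0.48, 0.24 and 0.13 to 0.17. In PlGF 1, 22 of the 33 (66.7%) lay outside the control range, 18 above and 4 below, against 72.2% of all genes. In PlGF 2, 21 (63.6%) did, 4 above and 17 below, against 52.1% of all genes. PlGF 1 was higher than PlGF 2 for 29 of 33 (87.9%), against 42.9% of all genes and 51.5% of genes above the median level. Among the controls the highest value was that of control 2 for 23 of 33 (69.7%; all genes, 34.4%), and in arrays labelled PlGF/RGS4 it was that of PlGF/RGS4 2 for 17 of 33 (51.5%; all genes, 32.7%). These are the hearts with low Xist. In 9 of the 33 genes (27.3%) the low-Xist heart was the highest in every group, against 5.71% of all genes. The part of sex in this pattern was not tested. With sex read from Xist as a term in the fit Psme2 was still called, whereas Psmd10 was not (limma adjusted p = 0.0305 and 0.0569). That fit does not settle the part of sex, because in PlGF each Xist level had 1 heart, so sex and heart cannot be told apart there.

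Of the other activators and the inhibitor 0 of 3 were called in PlGF, against 2.53% of all genes. An unadjusted p below 0.05 was reached by 1 of the 3 (33.3%), against 22.6% of all genes. Psme4 encodes PA200, a nuclear cap that opens the core without ATP or ubiquitin. It read 3966.5, 3834.5 and 3609.7 in control hearts, 2660.0 and 3351 with PlGF and 2961, 3759.5 and 3295 in arrays labelled PlGF/RGS4. Both PlGF hearts lay below all controls, but PlGF/RGS4 1 and PlGF/RGS4 3 did so too. The difference was −0.35 ± 0.13 in PlGF (limma adjusted p = 0.162) and −0.19 ± 0.11 in arrays labelled PlGF/RGS4 (limma adjusted p = 0.995). Psme3, the PA28γ cap of the nucleus, read 1655, 1689 and 1749 in control hearts and 1558 and 1605 with PlGF, slightly lower without overlap (−0.10 ± 0.05, limma adjusted p = 0.256). Psmf1, the inhibitor PI31, read 467.5 to 522 in control hearts, 557 and 509 in PlGF and 522 to 534 in arrays labelled PlGF/RGS4, with overlapping groups (0.10 ± 0.07, limma adjusted p = 0.378). Of the 2 genes that are no subunits, Psmc3ip, a factor of meiotic recombination, read 64.8 and 69.6 in PlGF against 72.7 to 81.0 in control (−0.18 ± 0.07, limma adjusted p = 0.176), and Psme3ip1, which binds PA28γ, read 475 and 439 against 421.5 to 503 in control.

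In the arrays labelled PlGF/RGS4 0 of the 47 genes were called against control by limma, where 3 of all genes (0.0151%) were. At an unadjusted p below 0.05 stood only Psmd10, 1 of 47 (2.13%) against 5.02% of all genes. Groups did not overlap for Psma5 and Psmd10, above control, and Psmd6, a lid subunit, below it by under 1 unit, 3 of 47 (6.38%) against 12.8% of all genes. All 47 intervals lay within 1.5-fold. Between PlGF and the arrays labelled PlGF/RGS4 Psme2 alone was called, 1 of 47 (2.13%) against 1.19% of all genes. At an unadjusted p below 0.05 stood 5 of 47 (10.6%; all genes, 19.5%), namely Psme1, Psme2, Psmd14 and Psmg4, higher in PlGF, and Psmg2, lower. Groups did not overlap for 11 of 47 (23.4%; all genes, 32.5%), 6 above and 5 below. This comparison shares the PlGF arrays with the one against control.

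Proteasome-linked genes (ubiquitin receptors, deubiquitinases, shuttle factors, transcription factors and the p97 segregase) were listed by 30 symbols, an older symbol of Sem1 and of Ufd1 among them. Of these genes 19 were measured, and 0 were called in any comparison. The median difference in PlGF was −0.02. At an unadjusted p below 0.05 stood 3 of the 19 (15.8%), 1 higher and 2 lower, against 22.6% of all genes. The lower ones were Ecpas and Ubqln2, by −0.20 ± 0.06 and −0.21 ± 0.07 (limma adjusted p = 0.108 and 0.148). In PlGF/RGS4 versus control 1 (5.26%) did, Ecpas, again lower, against 5.02% of all genes. In PlGF versus PlGF/RGS4 0 did, against 19.5% of all genes. The higher one was Nfe2l1, the transcription factor that raises proteasome genes when activity is short. It read 3292, 3299 and 3080.1 in control hearts and 3586 and 3469 with PlGF, both above (0.13 ± 0.05, limma adjusted p = 0.193). The arrays labelled PlGF/RGS4, at 3319 to 3377, also lay above all controls. Pomp, the maturation factor of the core, read 772, 790.5 and 739.5 in control hearts and 1411 and 793 with PlGF, so that PlGF 1 again stood alone (0.46 ± 0.20, limma adjusted p = 0.232).

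Of 8 measured genes of the interferon gamma response 6 were called higher in PlGF, against 356 of 19933 over all genes. The median difference over the list was 2.36, with 2.95 in PlGF 1 and 1.77 in PlGF 2. Of 16 leukocyte markers 9 were called higher, with a median of 1.40, 1.97 in PlGF 1 and 0.87 in PlGF 2. Their summed intensity was 5067 to 5332 in control, 19312 and 9699 with PlGF and 4532.5 to 5935 in arrays labelled PlGF/RGS4, and 0 of the 16 were listed at 0. PlGF 1 also exceeded PlGF 2 in Psme1 and Psme2, as it did in 29 of the 33 genes of the core and the 19S particle (87.9%). The part of leukocytes or of interferon in the Psme1 and Psme2 values was not tested. The median of the 12 cardiomyocyte markers was −0.17 in PlGF 1 and 0.00 in PlGF 2, with 0 called. Of 8 endothelial markers 1 was called higher, and 0 of 6 fibroblast and 0 of 3 cell cycle markers were, the latter reading above control in both PlGF hearts. The plot of list medians sets the core and the 19S particle beside these lists.

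**Figure D4:**
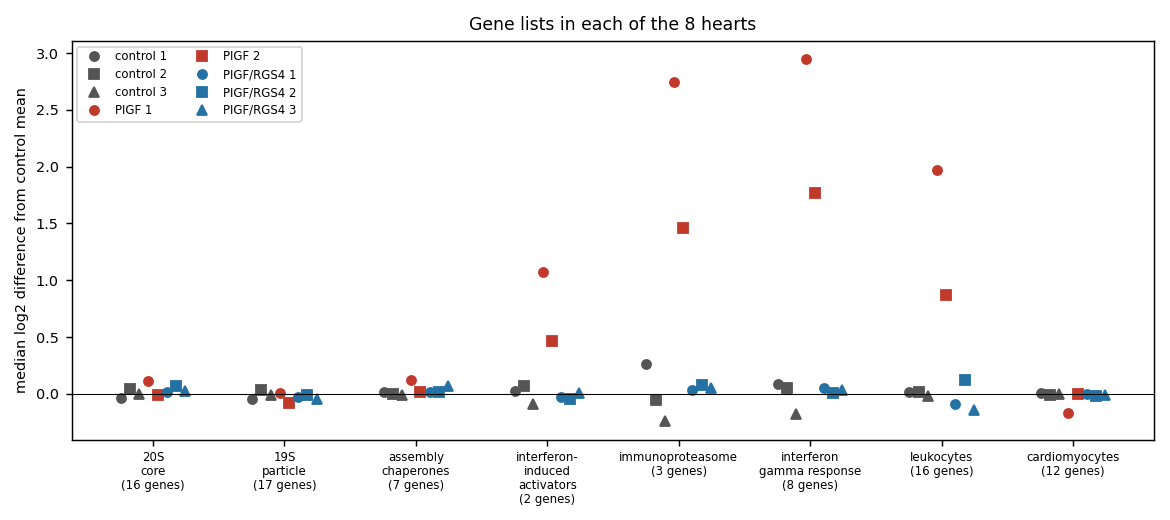
Median over the genes of each list of log2(intensity + 1) minus the mean of the controls, 1 point per heart (grey, control; red, PlGF; blue, arrays labelled PlGF/RGS4). The core, the 19S particle and the assembly chaperones lie between −0.08 and 0.12 in all 8 hearts, while the immunoproteasome reads 2.75 and 1.46 and the interferon-induced activators 1.07 and 0.47 with PlGF.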

How the data were processed

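Deposited values are linear array intensity, 1 per probe set. The methods of the study name the MAS5 algorithm at Affymetrix settings with global scaling. Some values recur exactly between arrays, such as 723.1 for Psma2 in control 3, PlGF 2 and PlGF/RGS4 1. Whether the named processing gave these repeats was not tested. Of 28440 probe sets, the 21780 with 1 gene symbol were kept, the brightest per gene, which left 19933 genes; 1618 had several symbols and 5042 none. No genome build is given for the arrays in the sources used here. Values were taken as log2(intensity + 1), so fold changes of dim genes are understated.

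All 8 arrays entered a single limma 3.58.1 model in R 4.3.3 (lmFit, eBayes; a mean per group), and p-values of its 3 contrasts were adjusted by Benjamini-Hochberg across the 19933 genes at a threshold of 0.05. The prior had 2.41 degrees of freedom. SE is that of limma. With 1 array per heart, error holds measurement and animal together, and the number of arrays limits precision. Exact permutation tests were two-sided.

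Members and lists were chosen with earlier results of these data known. Named genes were all activators, Psmb5, Psmb6, Psmb7, the 4 members of each list with the smallest unadjusted p in PlGF versus control, and called members. Alternatives were other scaling, centring, level filter, offset, probe set rule, samples, spread, prior, replicate block, sex, array weights and each array left out. The fit was tested on simulated data. One promoter sequence is not reported here.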

Additional observations from a re-analysis of the deposited data

Results flagged for a closer look

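Psme2 differed from control by 1.12 on the log2 scale in PlGF and by 0.02 in the arrays labelled PlGF/RGS4. The difference between both effects, tested as PlGF versus PlGF/RGS4, was 1.10 (limma adjusted p = 0.0447), with both PlGF hearts above all 3 arrays labelled PlGF/RGS4. It was 0.73 without PlGF 1 and 1.46 without PlGF 2, each with a single PlGF heart, and the adjusted p ran up to 0.181 with single arrays left out. Since Pgf read at the control level in the arrays labelled PlGF/RGS4, the difference is between arrays as labelled.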

How the results depend on the processing

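All directions of called members held in every alternative. In PlGF versus control, of 505 genes and 2 members called (Psme2, Psmd10), 1 member, Psme2, was left with log2 of the intensity plus 16, sex read from Xist, or array weights (131 genes). With only both groups compared 0 genes and 0 members were called (unadjusted p below 0.05, 3109 and 5), by the methods' t-test 4 and 0 (1887 and 6) and with a one-way ANOVA spread 11 and 0 (3635 and 9). Each array left out gave 17 to 5921 genes and 0 to 12 members. The 12 came without PlGF 2, where Psma5, Psma7, Psmb3, Psmc5, Psmd3, Psmd8, Psmd14, Psme1, Psme4 and Psmg4 were called too, with PlGF 1 as the single PlGF heart and the spread taken from the other groups alone; likewise, without PlGF 1 only Psme2 was called, and without any control or PlGF/RGS4 array 0. In PlGF/RGS4 versus control, of 3 genes called 0 were left with only both groups, the t-test, the ANOVA spread, the replicate block or sex (unadjusted p below 0.05, 838 to 1774), and 0 to 1 with each array left out; 0 members were called in each of these. In PlGF versus PlGF/RGS4, of 237 genes and 1 member, the counts were 110 genes for brighter genes alone, 138 and 0 with log2 of the intensity plus 16, 1 and 0 with only both groups, 5 and 0 by the t-test, 5 and 0 with the ANOVA spread, and 11 to 5591 and 0 to 10 with each array left out.

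Centring each array on its median lowered the PlGF medians of the core to 0.020, the 19S particle to −0.062, the other activators to −0.15 and the chaperones to 0.0085; against PlGF/RGS4 the last 3 became −0.035, −0.11 and −0.020. The mean of all probe sets gave −0.052 for the 19S particle. With each array left out, medians in PlGF versus control ran from −0.011 to 0.12 (core), −0.078 to 0.0090 (19S), 0.47 to 1.07 (interferon-induced) and 0.014 to 0.12 (chaperones), and in PlGF versus PlGF/RGS4 from −0.013 to 0.11, −0.039 to 0.070, 0.49 to 1.09 and −0.041 to 0.075.

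Arrays of the same replicate number correlated from −0.22 to 0.30 in their deviations from the group means. Arrays of different number were not compared in this way, and the deviations of both PlGF hearts are equal and opposite. Whether the numbers pair the samples is therefore not settled. With the number as a replicate block 27 genes and 0 members were called in PlGF versus control (unadjusted p below 0.05, 3713 and 5) and 26 and 0 in PlGF versus PlGF/RGS4. The cause of these changes was not tested. With 2 PlGF hearts, 1 of which stands apart, the values inside a 95% interval cannot be told apart.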
